A study of Homo sapiens with 20 samples.

Results

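The 35 genes described here encode the enzymes, transporters and regulators that take glucose into the cell, split it to pyruvate, store it as glycogen, and exchange lactate or pass pyruvate to the mitochondrion. Positions below are those of GENCODE release 44 on GRCh38. The genes were chosen by name from these pathways, with earlier results of these data known. Each was matched by its Ensembl identifier to 1 of the 57500 genes counted in every library. All 35 had reads in all 20 libraries. They were followed in NTERT cells, a human keratinocyte line made to divide without limit by telomerase, differentiated into epithelial sheets in calcium-containing medium. RNA of 4 groups of 5 cultures was sequenced, namely unwounded and HDW cultures of WT and of GCN2KO cells. In HDW (high-density wounding) multichannel pipet tips scored a grid of scratches into the sheet, and RNA was taken 6 h later. GCN2KO cells were an edited pool, not a clone, made by Cas9 with guides to exon 2 or exon 12 of the gene for GCN2 (EIF2AK4), an eIF2 kinase that responds to amino acid stress. WT stands for NTERT cells with a control guide, as the study defines it. The labels do not say whether the 5 cultures of a group came from separate passages, so the p-values measure the spread between these cultures, which may be technical.

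Glycolysis begins with glucose entry through facilitative transporters and its trapping by hexokinase, is controlled at phosphofructokinase, yields ATP at phosphoglycerate kinase and pyruvate kinase, and ends in pyruvate, which lactate dehydrogenase reduces to lactate for export with a proton. Most steps are encoded by several genes whose products differ in tissue distribution and regulation, so that a change in makeup can occur without a change in the sum. Keratinocytes are strongly glycolytic cells that export lactate, and they can store glycogen. The study asked how loss of GCN2 alters keratinocytes before and during migration into a wound. All levels below are of transcripts, and enzyme levels were not measured here. For SLC3A2 and ARHGEF2 the study reported higher mRNA but lower protein in GCN2KO cells.

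The libraries held 14083504 to 34611570 counts. EIF2AK4 was at 4374 ± 143 normalized read counts (mean ± SD, n = 5) in WT unwounded and 885 ± 63.7 in GCN2KO unwounded libraries, so some transcript remained in the pool. Every library correlated best with a library of its own group across genes. The GCN2KO unwounded libraries were the least alike, with a mean Pearson's r to the rest of their group of 0.990 to 0.991, against 0.994 to 0.997 in both WT groups and 0.991 to 0.996 in GCN2KO HDW libraries. The median coefficient of variation of the 35 genes was 3.88% in unwounded and 4.76% in wounded WT libraries, with 9.68% before and 6.72% after HDW in GCN2KO libraries. Of 8 keratinocyte markers, KRT5 was highest, at 234799 to 386539 normalized read counts in the group means, and the 8 summed to 431086 to 574517 in the libraries. They did not move as one. In GCN2KO unwounded cells KRT5 (log2 fold change 0.50), SFN (0.17) and the differentiation marker IVL (1.83) were higher. KRT14 (-0.85), TP63 (-0.52), ITGA6 (-0.73) and ITGB4 (-0.95) were lower, and DSG3 (0.12) did not pass. After HDW each of the 7 that had passed did so again in the same direction.

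Of the markers of other cell types, COL3A1, TYR, SOX10, PTPRC, CD3E and LYZ were at means of 0 to 1.19, and COL1A2, PDGFRB, LUM, DCT, PECAM1 and CDH5 at means of 0 to 8.47. CD14 was lower in GCN2KO unwounded cells (means 1689 and 777, log2 fold change -1.10), as was COL1A1 (896 and 729, -0.27), and MITF was higher (87.9 and 335, 1.98). PMEL was at means of 41.6 to 57.5, MLANA of 21.2 to 38.5 and DCN of 23.4 to 54.9. The 6 melanocyte markers summed to 129.5 to 171 in WT and 342 to 501 in GCN2KO unwounded libraries, the 6 fibroblast markers to 915 to 1049 and 667 to 889, and the 4 immune markers to 1596 to 1811 and 588 to 1195. The part of any of these in the results was not tested.

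Regulation at the start sites of these genes is often discussed through the letters ACGTG, the core of the hypoxia response element, and CACGTG, the E-box bound by MYC and related factors, which contains ACGTG. RefSeq windows of 300 bases (250 before to 50 after the start, GRCh38.p14) were listed for 32 of the 35 genes. SLC2A3, PFKFB2 and SLC16A1 had none. ACGTG on either strand was found in 23 of 63 windows of these genes (36.5%), against 21.4% of all 35116 windows, and CACGTG in 7 (11.1%), against 7.26%. Stretches of 240 bases before the start are shown for 5 genes with large differences between the groups, 3 of them higher and 1 lower in GCN2KO cells and 1 that depended on wounding, with every ACGTG and its reverse complement CACGT in capitals.
They lie at chr2:74833877-74834116 (HK2, + strand), chrX:78103998-78104237 (PGK1, + strand), chr3:81761656-81761895 (GBE1, - strand), chr21:44299803-44300042 (PFKL, + strand) and chr20:25247835-25248074 (PYGB, + strand).
HK2: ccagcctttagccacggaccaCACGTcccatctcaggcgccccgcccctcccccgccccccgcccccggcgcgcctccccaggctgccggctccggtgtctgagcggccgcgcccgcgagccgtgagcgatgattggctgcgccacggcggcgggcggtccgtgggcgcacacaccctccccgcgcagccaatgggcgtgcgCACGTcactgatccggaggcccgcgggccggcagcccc
PGK1: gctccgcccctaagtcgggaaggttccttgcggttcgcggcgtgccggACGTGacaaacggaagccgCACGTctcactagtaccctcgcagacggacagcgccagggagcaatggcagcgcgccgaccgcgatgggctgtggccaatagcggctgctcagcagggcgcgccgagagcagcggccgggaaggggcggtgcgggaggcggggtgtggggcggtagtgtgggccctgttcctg
GBE1: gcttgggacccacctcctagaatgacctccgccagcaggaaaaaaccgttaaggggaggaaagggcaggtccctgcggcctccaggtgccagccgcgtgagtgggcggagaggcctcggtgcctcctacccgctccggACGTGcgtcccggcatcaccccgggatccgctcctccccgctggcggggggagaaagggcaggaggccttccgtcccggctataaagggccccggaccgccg
PFKL: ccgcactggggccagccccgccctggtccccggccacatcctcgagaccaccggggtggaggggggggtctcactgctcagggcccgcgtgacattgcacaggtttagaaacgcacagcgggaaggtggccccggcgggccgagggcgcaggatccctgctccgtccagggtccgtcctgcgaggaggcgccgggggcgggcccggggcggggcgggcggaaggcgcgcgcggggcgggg
PYGB: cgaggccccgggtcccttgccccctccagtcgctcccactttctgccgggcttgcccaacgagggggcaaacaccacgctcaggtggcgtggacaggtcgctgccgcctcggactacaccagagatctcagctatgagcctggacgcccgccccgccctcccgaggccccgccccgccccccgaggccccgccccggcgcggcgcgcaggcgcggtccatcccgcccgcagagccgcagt

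HK2 and PGK1 held the letters at 2 places each, GBE1 at 1, and PFKL and PYGB had none in the stretch shown. Of the genes higher in GCN2KO cells both before and after HDW (named below), 7 of 11 with a window held ACGTG in at least 1 window, and of those lower in both states 2 of 7. Counted the same way it was 19 of all 32 members with a window (59.4%), against 24.9% of all 27305 genes. These counts per gene are not on equal terms, since a gene with more windows has more places to match. The 32 members had 63 windows, and the 27305 genes had 35116. The shares per window given above, 36.5% and 21.4%, are free of this. The counts are small, and a match of letters is a description of the sequence only.

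GCN2KO and WT libraries differed in most of these transcripts before any wound was made, as they did in most genes tested. Of the 34 genes tested, 18 were higher and 10 lower in GCN2KO than in WT unwounded cells by edgeR's quasi-likelihood test at p 0.05 or less after Benjamini-Hochberg adjustment (called "passed the test" from here on), and 6 did not pass. Across all 15348 genes tested, 33.4% were higher and 33.1% lower. The median log2 fold change was 0.23 over the tested members and 0.00424 over all genes. With the log2 fold change also 1 or larger in size, which defines a DE gene, 7 members were higher (ENO2, HK2, PFKFB4, GBE1, UGP2, PGK1 and PYGB) and 1 was lower (PFKL), against a background of 8.21% and 8.22% of genes. PDK4 was too weakly counted to be tested in this comparison.

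After HDW the genotypes differed for about as many of the genes, with fewer of them DE genes. All 35 genes were tested, of which 16 were higher, 13 lower and 6 did not pass, and 35.9% and 35.8% of the 15855 genes tested were higher and lower. The median log2 fold change was 0.05 over the members and 0.00197 over all genes, and it ran from 0.025 to 0.059 with 1 library left out, being under 0.035 without WT HDW replicate 2 (0.026) or 5 (0.0347) or GCN2KO HDW replicate 4 (0.025). PDK4 passed the filter on low counts only through the GCN2KO HDW libraries, the group where it was high, so its calls here and below carry no weight as tests. DE genes were HK2, PFKFB4, ENO2 and GBE1 (beside PDK4), which were higher, and PFKL, which was lower, with 7.1% of all genes DE and higher and 7.83% DE and lower. In both states 12 genes were higher in GCN2KO cells (HK2, GPI, PFKFB2, PFKFB4, PGK1, ENO1, ENO2, PKM, SLC16A3, GBE1, UGP2 and PDHA1) and 8 were lower (SLC2A1, SLC2A3, PFKL, PFKM, PFKP, LDHB, PYGL and GYS1), of 34 tested in both, where 26.7% of the 15238 genes tested in both were higher and 26.9% lower in both states. PGAM1, PYGB and PDK1 were higher before and lower after HDW, and PFKFB3 was lower before and higher after it, against 1.07% and 0.866% of genes. These comparisons rest on separate libraries.

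**Figure D1:**
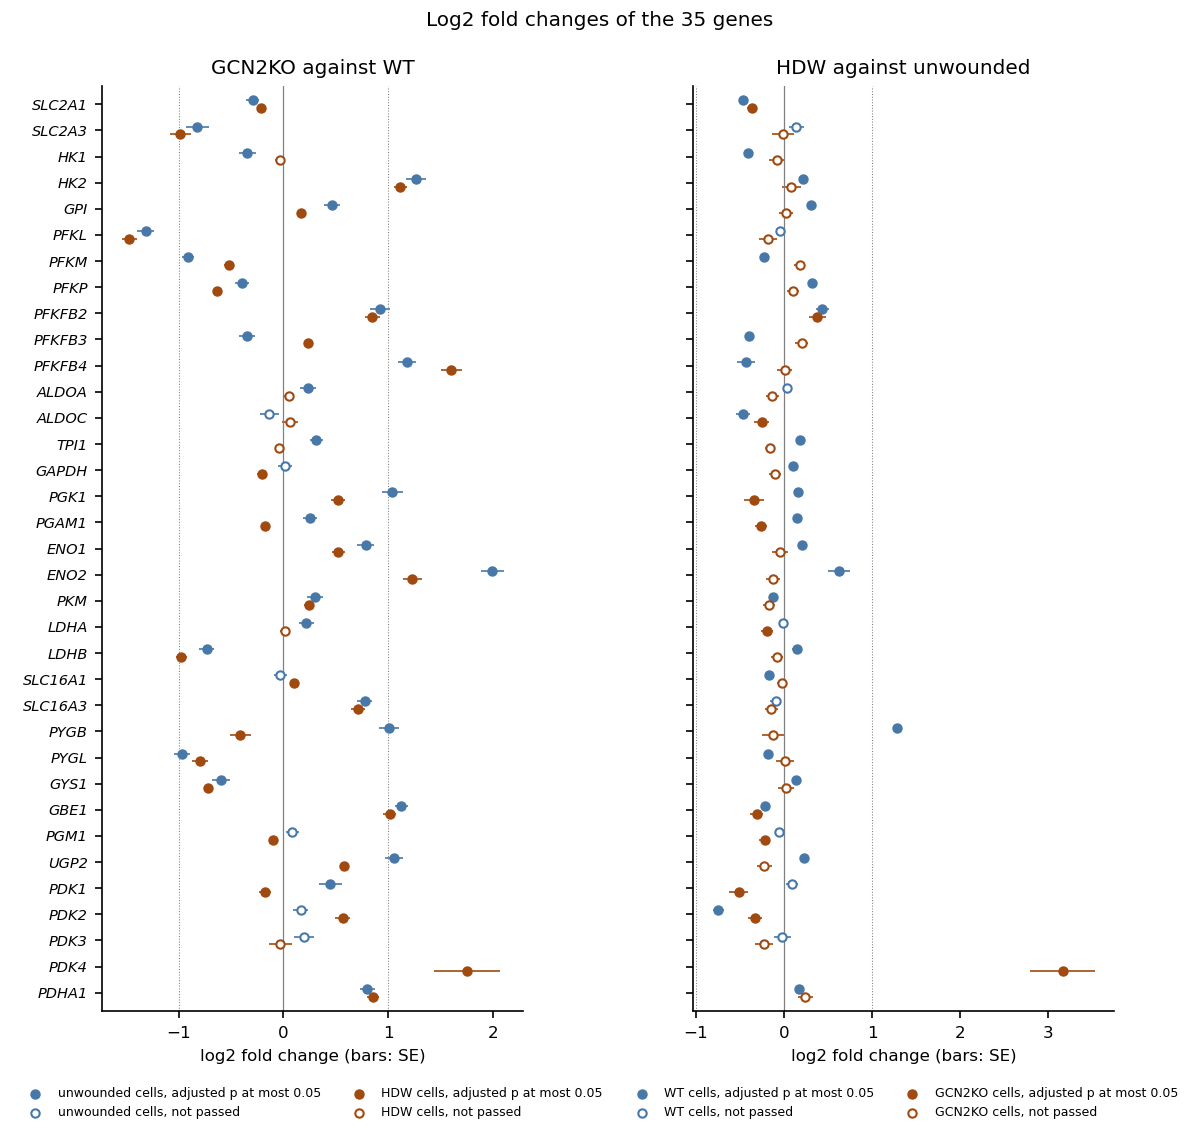
Log2 fold change with its SE of each of the 35 genes, from glucose entry (top) to pyruvate dehydrogenase (bottom), for GCN2KO against WT (left; blue unwounded, brown HDW) and for HDW against unwounded cells (right; blue WT, brown GCN2KO); filled points passed the test, open points did not, and dotted lines mark a log2 fold change of 1. The genotype differences reach 2.0 for ENO2 and -1.47 for PFKL, and after HDW most brown points lie near 0 with the weakly counted PDK4 at 3.16.

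Glucose enters keratinocytes mainly by GLUT1, the product of SLC2A1 (ENSG00000117394, chromosome 1, 42925353 to 42958893), and this transcript was lower in GCN2KO cells and fell on wounding in both genotypes. SLC2A1 read 23528, 22441, 23544, 21539 and 21867 normalized counts in the WT unwounded libraries and 16262, 17430.1, 16999, 15359.5 and 16551 in the WT HDW libraries. In GCN2KO cells it read 18646, 18179, 17669, 18574 and 17577 before and 14447, 14425, 13784, 13550.5 and 13849 after HDW. None of the 4 groups overlapped another, and their order was WT unwounded, GCN2KO unwounded, WT HDW and GCN2KO HDW from the highest to the lowest. HDW changed it, on the log2 scale, by -0.46 (SE 0.0424, adjusted p = 3.32e-07) in WT and -0.36 (SE 0.0562, adjusted p = 0.00111) in GCN2KO cells. The difference between these responses was 0.08 on the log2 scale (SE 0.068, adjusted p = 0.396) and did not pass. GCN2KO against WT gave -0.29 on the log2 scale before (adjusted p = 0.000618) and -0.21 after HDW (adjusted p = 0.000298). SLC2A3, which encodes the high-affinity transporter GLUT3, was a minor transcript. Per length it was 0.867 ± 0.0787% of the pair in WT unwounded cells, and it was lower in GCN2KO cells, with log2 fold changes of -0.82 before and -0.99 after HDW, just short of the DE threshold. In such bulk RNA, fewer cells that express a gene and less RNA per cell cannot be told apart. Together the pair summed to 119.9 ± 4.91 reads per kilobase of exon, scaled to library size (RPKM, mean ± SD, n = 5) in unwounded and 88.1 ± 4.09 in wounded WT cells, with 96 ± 2.66 before and 74.3 ± 2.19 after HDW in GCN2KO cells.

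Hexokinase phosphorylates glucose on entry, and the transcript makeup of this step was shifted toward HK2, its inducible isozyme, in GCN2KO cells. HK2 (ENSG00000159399, chromosome 2, 74834127 to 74893359) read 2189, 2099.8, 2124, 2109 and 2028 normalized counts in WT unwounded and 2337, 2653, 2463, 2513 and 2368 in WT HDW libraries. In the GCN2KO libraries it read 4327, 5915, 4534, 5834 and 4309 before and 5711, 5381, 5442, 5319 and 4425 after HDW. Every GCN2KO value was above every WT value, and the GCN2KO unwounded values fell into a lower set of 3 and a higher set of 2 (replicates 2 and 4). On the log2 scale GCN2KO cells exceeded WT cells by 1.26 (SE 0.0945, adjusted p = 8.22e-09) before and 1.12 (SE 0.0637, adjusted p = 3.62e-09) after HDW. HDW raised HK2 in WT cells by 0.22 on the log2 scale (adjusted p = 0.000333), and the response in GCN2KO cells was 0.08 (adjusted p = 0.586), with an interaction of -0.14 (adjusted p = 0.409).

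HK1, the constitutive hexokinase bound to mitochondria, went the other way in WT cells on wounding. It read 8768, 8934, 8879, 9352 and 9044 in WT unwounded and 6882, 6985, 7074, 6468 and 6764 in WT HDW libraries. The GCN2KO values were 7941, 7613, 6168, 7229 and 5869.7 before and 6061, 6442, 6597, 6469 and 7273 after HDW. Both WT groups were tight and apart from each other, whereas the GCN2KO groups overlapped each other. On HDW HK1 fell by 0.41 on the log2 scale (SE 0.0315, adjusted p = 5.66e-08) in WT cells, and the value was -0.08 (SE 0.0898, adjusted p = 0.562) in GCN2KO cells, a difference that passed the test (interaction 0.32, adjusted p = 0.0188). Per length, HK2 made up 21.4 ± 0.751% (mean ± SD, n = 5) of HK1 and HK2 transcript in unwounded and 29.5 ± 1.23% in wounded WT cells, with 45.3 ± 3.8% before and 48.1 ± 4.02% after HDW in GCN2KO cells. The log2 ratio of HK2 to HK1 counts was higher by 1.60 in GCN2KO unwounded cells and by 0.62 after HDW in WT cells (exact two-sided permutation tests, adjusted p = 0.0131 for each, the smallest the design and 56 tests gave). In GCN2KO cells HDW moved it by 0.16 on the log2 scale (exact permutation test, adjusted p = 0.322), which did not pass. GPI, which converts the hexokinase product to fructose phosphate, was higher in GCN2KO cells by 0.46 on the log2 scale before and 0.17 after HDW and rose by 0.30 on HDW in WT cells.

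Phosphofructokinase, the committed and most regulated step of glycolysis, had lower transcripts of all 3 of its subunit genes in GCN2KO cells. PFKL (ENSG00000141959, chromosome 21, 44300051 to 44327376), its liver-type subunit, read 5000.0, 5072, 4796, 4871 and 4942 normalized counts in WT unwounded and 4847, 4622, 4776, 4799 and 5053 in WT HDW libraries. Its GCN2KO values were 2342, 1925, 1701, 1995 and 1778 before and 1472, 1708, 1620.1, 1615 and 2125 after HDW. No GCN2KO value reached a WT value, and the highest GCN2KO values were replicate 1 of the unwounded and replicate 5 of the HDW libraries. GCN2KO against WT gave -1.32 on the log2 scale (SE 0.0805, adjusted p = 8.58e-10) before and -1.47 (SE 0.0759, adjusted p = 1.50e-09) after HDW, and without these 2 libraries -1.39 and -1.56. HDW itself did not change PFKL past the test in WT (-0.04 on the log2 scale, adjusted p = 0.283) or GCN2KO cells (-0.18, adjusted p = 0.217). The muscle-type subunit PFKM was lower too, with log2 fold changes of -0.91 before and -0.52 after HDW. For the platelet-type PFKP, the most abundant of the 3, they were -0.39 on the log2 scale and -0.63. Since PFKP was the least affected before HDW, its share of the family per length was 55 ± 0.372% in WT and 67.3 ± 0.75% in GCN2KO unwounded cells. The sum of the family was 69.9 ± 0.904 RPKM in unwounded and 77.6 ± 2.49 in wounded WT cells, with 42.8 ± 3.15 before and 44.5 ± 2.44 after HDW in GCN2KO cells. On HDW PFKP rose by 0.32 on the log2 scale and PFKM fell by 0.23 in WT cells, and both responses differed from those in GCN2KO cells, 0.10 and 0.18 (interaction -0.23, adjusted p = 0.0215, and 0.39, adjusted p = 0.000349). The PFKP interaction passed in 19 of the 20 fits that left out 1 library, the exception being at an adjusted p of 0.054.

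The PFKFB enzymes make and remove a regulatory isomer of fructose bisphosphate that activates phosphofructokinase, and their genes moved in different directions. PFKFB4 (ENSG00000114268, chromosome 3, 48517684 to 48562015) read 184, 219, 209, 218 and 187 normalized counts in WT unwounded and 154, 184, 159, 122 and 139 in WT HDW libraries. In GCN2KO cells the values were 431, 454, 415, 517 and 452 before and 465, 412, 512, 465 and 418 after HDW. The GCN2KO and WT values lay far apart in both states, and in WT cells the HDW values were below the unwounded values, though the ranges nearly touched. GCN2KO against WT gave log2 fold changes of 1.18 (SE 0.0874, adjusted p = 7.25e-09) before and 1.60 (SE 0.0985, adjusted p = 6.98e-09) after HDW. On HDW PFKFB4 fell by 0.43 on the log2 scale in WT cells (adjusted p = 0.00251), where the GCN2KO value was 0.0092 (interaction 0.43, adjusted p = 0.021).

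PFKFB3, the form with the strongest kinase activity and the most abundant of the 3 here, crossed over between the genotypes. It read 2455, 2347, 2510.2, 2407 and 2341 in WT unwounded and 1843, 1899, 1873, 1734 and 1828 in WT HDW libraries. In the GCN2KO libraries it read 2042, 2012, 1682, 1946 and 1631 before and 2052, 2065, 2198, 2030.1 and 2279 after HDW. GCN2KO values were below all WT values before HDW and above all WT values after it. The log2 fold changes were -0.35 (SE 0.074, adjusted p = 0.000568) and 0.24 (SE 0.0409, adjusted p = 0.000131). With HDW PFKFB3 fell by 0.40 on the log2 scale in WT cells (adjusted p = 2.01e-07) and moved by 0.20 in GCN2KO cells (adjusted p = 0.0749), with an interaction of 0.59 (SE 0.0836, adjusted p = 1.72e-05). PFKFB2 was higher in GCN2KO cells by 0.92 on the log2 scale and 0.85, and it was the gene with a rise on HDW in both genotypes, of 0.44 in WT (adjusted p = 0.000115) and 0.38 in GCN2KO cells (adjusted p = 0.0127). The share of PFKFB4 in the family was 6.92 ± 0.568% in WT and 15.5 ± 1.17% in GCN2KO unwounded cells per length, while the sum was 16.8 ± 0.374 and 16.7 ± 1.24 RPKM.

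The enzymes that split the sugar and handle the triose phosphates include several of the most abundant transcripts of the set. Aldolase A (ALDOA) was at 373 ± 9.74 RPKM in WT unwounded cells and 432 ± 41.2 in GCN2KO unwounded cells, a log2 fold change of 0.24 (adjusted p = 0.0119), and it did not pass in the other 3 comparisons of groups. ALDOC, the brain-type aldolase, gave 1.35 ± 0.118% of the pair in WT unwounded cells and fell on HDW, with log2 fold changes of -0.47 in WT (adjusted p = 0.000174) and -0.26 in GCN2KO cells (adjusted p = 0.0391). The GCN2KO fall of ALDOC passed in 2 of 10 fits that left out 1 library, with adjusted p up to 0.0908. TPI1, which interconverts the triose phosphates, was higher in GCN2KO unwounded cells by 0.32 on the log2 scale (adjusted p = 0.000289). It rose by 0.18 on the log2 scale on HDW in WT cells (adjusted p = 0.00121) and gave -0.16 in GCN2KO cells (adjusted p = 0.0591), so that the responses differed by -0.35 (adjusted p = 0.00069).

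GAPDH, the oxidative step, is also a common reference for mRNA and protein measurements. It had the highest level of the 35 per length, at 913 ± 25.5 RPKM in unwounded and 987 ± 39.9 in wounded WT cells, with 907 ± 63.1 before and 839 ± 31.7 after HDW in GCN2KO cells. Between the genotypes its log2 fold change was 0.01 (SE 0.0709, adjusted p = 0.87) before HDW and -0.21 (SE 0.0423, adjusted p = 0.000511) after it. On HDW it was 0.10 on the log2 scale in WT (adjusted p = 0.0327) and -0.10 in GCN2KO cells (adjusted p = 0.27). The rise in WT cells passed in 3 of 10 fits that left out 1 library, with adjusted p up to 0.0808, and the interaction (-0.22 on the log2 scale) in 6 of 20. Among 8 other genes used as references, ACTB, which encodes beta-actin, rose by 1.27 on the log2 scale on HDW in WT and 0.62 in GCN2KO cells. HPRT1 was lower in GCN2KO than in WT HDW cells, at -0.91. Between genotypes before HDW, 2 of the 8 were higher, 4 lower and 2 did not pass, PPIA (-0.05) and TBP (0.10). On HDW in WT cells 4 rose, 3 fell and 1 did not pass, PPIA (-0.02). GAPDH shares 17.6% of its exonic bases with a gene on the other strand and has 65 annotated pseudogenes named after it, so a part of its reads may be shared or lost.

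The transcript of phosphoglycerate kinase, the first step of glycolysis to yield ATP, was 2.06-fold as abundant in GCN2KO as in WT unwounded cells. PGK1 (ENSG00000102144, chromosome X, 77910739 to 78129295) read 9389, 9425, 10026, 9234 and 9922 normalized counts in WT unwounded and 10889, 10228, 10682, 10993 and 11356 in WT HDW libraries. The GCN2KO libraries gave 16871, 16209, 24859, 17437 and 21729.5 before and 16982, 15211, 15396, 15914 and 12840.1 after HDW. All GCN2KO values were above all WT values, with replicates 3 and 5 of the unwounded GCN2KO libraries the highest and replicate 5 of the HDW libraries the lowest. The log2 fold change was 1.04 (SE 0.102, adjusted p = 1.99e-07) before and 0.52 (SE 0.0642, adjusted p = 5.18e-06) after HDW. HDW raised PGK1 by 0.16 on the log2 scale in WT (adjusted p = 0.00183) while it fell by 0.34 in GCN2KO cells (adjusted p = 0.0444), and the difference passed (interaction -0.52, adjusted p = 0.00489). The fall in GCN2KO cells passed in 3 of 10 fits that left out 1 library, with adjusted p up to 0.109, and its groups overlapped. PGAM1, the next enzyme, had the same pattern at smaller size, with 0.15 on the log2 scale in WT (adjusted p = 0.001) and -0.26 in GCN2KO cells (adjusted p = 0.0166) and an interaction of -0.43 (adjusted p = 0.000312).

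Enolase makes phosphoenolpyruvate, and both of its genes were higher in GCN2KO cells. ENO2 (ENSG00000111674, chromosome 12, 6913745 to 6923698), the neuron-type form, read 65.9, 76.6, 79.1, 62.2 and 59.5 normalized counts in WT unwounded and 114, 100.4, 118, 88.2 and 106 in WT HDW libraries. In GCN2KO cells it read 263, 269.9, 260.5, 296 and 247 before and 255, 253, 252, 242 and 215 after HDW. The WT groups did not overlap each other and the GCN2KO values were all higher, whereas the GCN2KO groups overlapped. GCN2KO against WT was 2.0 on the log2 scale (SE 0.109, adjusted p = 2.63e-10) before and 1.23 (SE 0.0882, adjusted p = 2.70e-08) after HDW. HDW raised ENO2 by 0.62 on the log2 scale in WT cells (adjusted p = 0.000461) and gave -0.13 in GCN2KO cells (adjusted p = 0.279), with an interaction of -0.76 (SE 0.138, adjusted p = 0.000281). Even so ENO2 was a small part of the family, 0.23 ± 0.0254% per length in WT and 0.532 ± 0.0643% in GCN2KO unwounded cells. The abundant ENO1 was higher in GCN2KO cells by 0.79 on the log2 scale before (adjusted p = 3.13e-07) and 0.52 after HDW (adjusted p = 3.45e-06), and the sum of the pair was 242 ± 6.61 RPKM in WT unwounded and 413 ± 50.5 in GCN2KO unwounded cells. PKM, the pyruvate kinase gene of these cells, was higher by 0.30 on the log2 scale and 0.24 and fell by 0.13 on HDW in WT cells.

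**Figure D2:**
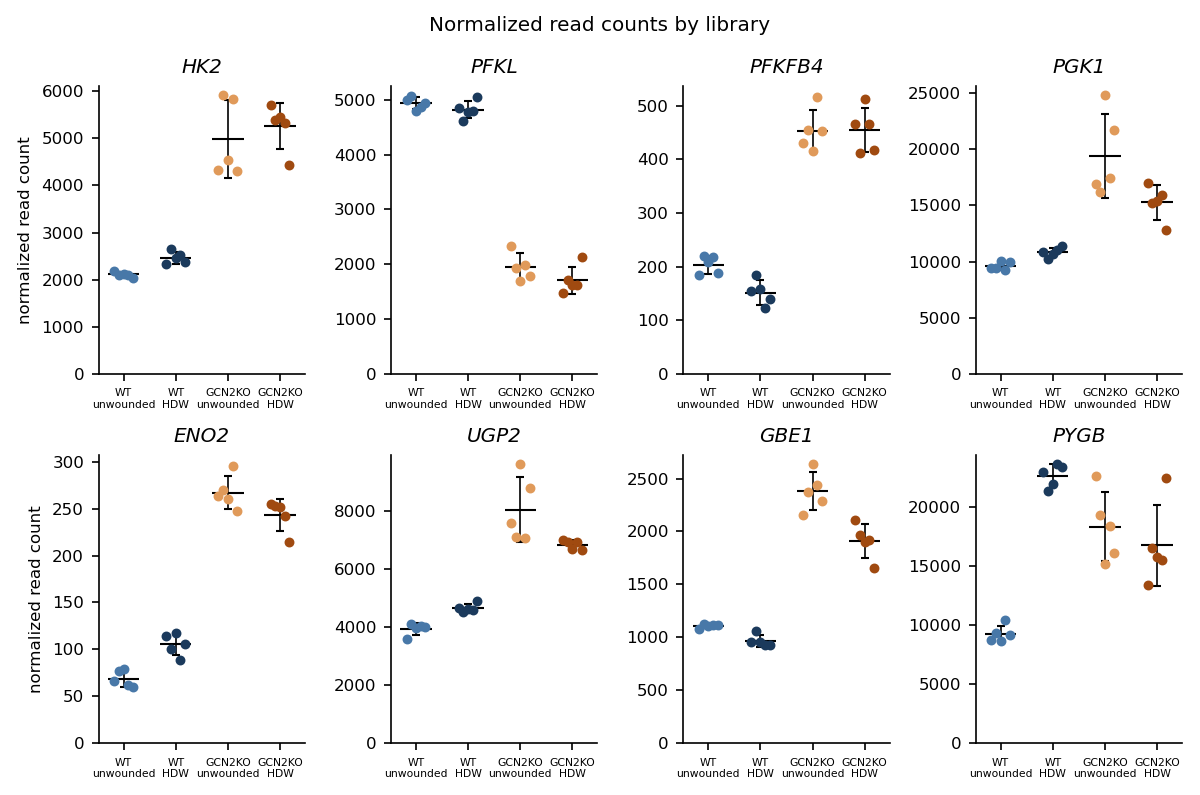
Normalized read counts of 8 genes in each of the 20 libraries (points), with the mean (horizontal line) and SD (error bar) of the 5 libraries of a group; every axis starts at 0. HK2, PFKFB4, PGK1, ENO2, UGP2 and GBE1 have all GCN2KO values above all WT values and PFKL has all below, while PYGB is low in WT unwounded libraries and higher in the other 3 groups.

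At the lactate step the transcript levels of the isozymes parted. LDHA, whose subunit favors lactate formation, was higher in GCN2KO unwounded cells by 0.22 on the log2 scale (adjusted p = 0.0166), a call that was lost without replicate 4 of the WT unwounded libraries (0.19, adjusted p = 0.056). After HDW it was 0.01 on the log2 scale (SE 0.0486, adjusted p = 0.819). LDHB, whose subunit favors lactate use, was lower, with log2 fold changes of -0.73 (SE 0.0693, adjusted p = 1.24e-07) before and -0.97 (SE 0.0564, adjusted p = 3.99e-09) after HDW. LDHB read 9956 to 11551 normalized counts in unwounded and 10462 to 12576 in wounded WT libraries, with 5807 to 7042 before and 5576 to 6410.4 after HDW in GCN2KO libraries, with no overlap between genotypes. Per length LDHA was 58.2 ± 0.868% of the pair in unwounded and 55.7 ± 0.802% in wounded WT cells, with 73 ± 0.592% before and 71.3 ± 1.73% after HDW in GCN2KO cells. The log2 ratio of LDHA to LDHB was higher in GCN2KO cells by 0.95 before and 0.99 after HDW (exact permutation tests, adjusted p = 0.0131 for each).

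Lactate leaves the cell through monocarboxylate transporters. SLC16A3 encodes MCT4, the low-affinity exporter of glycolytic cells, and it was higher in GCN2KO cells by 0.78 on the log2 scale (SE 0.0722, adjusted p = 9.91e-08) before and 0.72 (SE 0.0663, adjusted p = 3.11e-07) after HDW. It read 3739 to 4470.4 and 6451 to 7861 normalized counts in WT and GCN2KO unwounded libraries. SLC16A1, which encodes MCT1, did not pass before HDW (-0.03 on the log2 scale, SE 0.0618) and was higher by 0.10 after it (adjusted p = 0.0329), a call kept in 6 of 10 fits that left out 1 library. The share of SLC16A3 in the pair was 26.1 ± 1.4% per length in WT and 38.3 ± 2.05% in GCN2KO unwounded cells, and 27.2 ± 0.672% and 36.3 ± 2.07% after HDW. BSG, which encodes the chaperone basigin that carries both transporters to the membrane, was also higher in GCN2KO cells. Its log2 fold changes were 0.86 (adjusted p = 2.59e-08) before and 0.61 (adjusted p = 6.22e-08) after HDW. Not all related genes were higher. SLC16A7, which encodes a further monocarboxylate transporter, was lower in GCN2KO cells. Its log2 fold changes were -1.33 (adjusted p = 3.92e-09) before and -0.86 (adjusted p = 2.04e-06) after HDW. EMB, which encodes another chaperone, was lower before HDW (-0.21 on the log2 scale, adjusted p = 0.00453). After HDW EMB did not pass (0.00512 on the log2 scale).

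**Figure D3:**
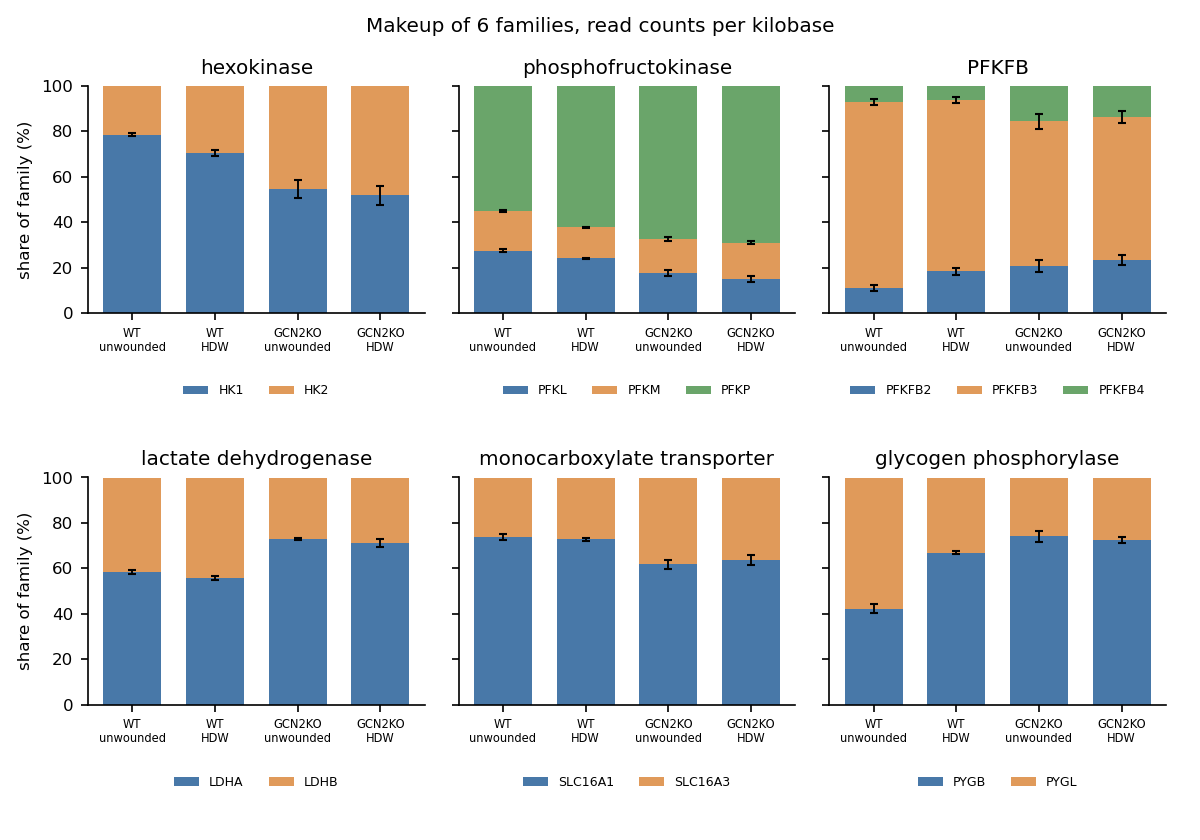
Share of each gene in 6 families per length (percent of the family's reads per kilobase; stacked bars from 0 to 100%) in the 4 groups, with error bars for the SD of 5 libraries at the boundaries. The shares of HK2, PFKP, LDHA and SLC16A3 are larger in GCN2KO than in WT unwounded cells, and the share of PYGB goes from 42.3 ± 2.01% in WT unwounded to 66.9 ± 0.545% in WT HDW cells.

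Glycogen phosphorylase releases glucose units from glycogen, and PYGB, its brain-type form, had the largest log2 fold change on HDW of the 34 genes tested in WT cells. PYGB (ENSG00000100994, chromosome 20, 25248085 to 25298012) read 8746, 9297, 8669, 10373 and 9136 normalized counts in WT unwounded and 22938, 21363, 21907, 23619 and 23331 in WT HDW libraries. In GCN2KO cells it read 22564, 19320.0, 15179, 18349 and 16075 before and 13406, 16536, 15744, 15470.0 and 22448 after HDW. The WT unwounded values were below those of every other group, the GCN2KO groups overlapped each other, and 1 GCN2KO library of each state reached the WT HDW range. HDW raised PYGB by 1.28 on the log2 scale (SE 0.0466, adjusted p = 2.60e-11) in WT cells and gave -0.12 (SE 0.133, adjusted p = 0.527) in GCN2KO cells. The interaction was -1.42 on the log2 scale (SE 0.15, adjusted p = 3.02e-07). GCN2KO against WT was 1.01 on the log2 scale (SE 0.0986, adjusted p = 1.78e-07) before HDW, and it was under 1 when replicate 1, 3 or 5 of the WT unwounded or replicate 1 or 2 of the GCN2KO unwounded libraries was left out (lowest 0.92). After HDW it was -0.41 on the log2 scale (SE 0.102, adjusted p = 0.00231), with replicate 5 of the GCN2KO HDW libraries inside the WT range. With this library and replicate 1 of the GCN2KO unwounded libraries, the highest PYGB values of their groups, left out, the values were 0.92 before and -0.54 after HDW, -0.16 for HDW in GCN2KO cells and -1.46 for the interaction.

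PYGL, the liver-type phosphorylase, was lower in GCN2KO cells, with log2 fold changes of -0.97 (SE 0.0776, adjusted p = 1.84e-08) before and -0.80 (SE 0.0739, adjusted p = 3.07e-07) after HDW. It fell by 0.18 on the log2 scale on HDW in WT cells (adjusted p = 0.0003). PYGL was the larger part of the pair in WT unwounded cells, 57.7 ± 2.01% per length, and the smaller part in WT HDW (33.1 ± 0.545%), GCN2KO unwounded (25.8 ± 2.44%) and GCN2KO HDW cells (27.6 ± 1.3%). The log2 ratio of PYGL to PYGB moved by -1.97 between genotypes before HDW and by -1.46 on HDW in WT cells (exact permutation tests, adjusted p = 0.0131 for each). The sum of the pair was 170.3 ± 4.58 RPKM in unwounded and 264 ± 10.1 in wounded WT cells, with 192 ± 27.1 before and 179.9 ± 33.3 after HDW in GCN2KO cells.

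Genes of glycogen synthesis parted into higher and lower ones. UGP2 (ENSG00000169764, chromosome 2, 63840952 to 63891562), which makes the sugar nucleotide for chain growth, read 3584, 4099.9, 3944, 4034 and 3978 normalized counts in WT unwounded and 4639.9, 4507, 4604, 4569 and 4869.5 in WT HDW libraries. It read 7572, 7099, 9611, 7068 and 8767 in GCN2KO unwounded and 6979.9, 6911, 6672, 6925 and 6647 in GCN2KO HDW libraries. Replicates 3 and 5 stood highest in the GCN2KO unwounded group, as for PGK1, and the genotypes did not overlap. The log2 fold change was 1.05 (SE 0.0847, adjusted p = 1.91e-08) before and 0.58 (SE 0.0364, adjusted p = 8.09e-09) after HDW. HDW raised it by 0.23 on the log2 scale in WT cells (adjusted p = 0.000104) and gave -0.22 in GCN2KO cells (adjusted p = 0.0635), with an interaction of -0.47 (adjusted p = 0.000944).

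GBE1 (ENSG00000114480, chromosome 3, 81489703 to 81761645), the branching enzyme, read 1081, 1124, 1106, 1117 and 1119 in WT unwounded and 952, 1058, 953, 924 and 927 in WT HDW libraries. Its GCN2KO values were 2158, 2370.4, 2636, 2441 and 2290.3 before and 2104, 1968, 1904, 1923 and 1652 after HDW. All 4 groups were apart from one another, with GCN2KO above WT and HDW below unwounded in each genotype. GCN2KO against WT was 1.12 on the log2 scale (SE 0.062, adjusted p = 2.95e-10) before and 1.01 (SE 0.062, adjusted p = 6.79e-09) after HDW. HDW lowered GBE1, with log2 fold changes of -0.21 in WT (adjusted p = 0.000466) and -0.31 in GCN2KO cells (adjusted p = 0.0109), and the interaction of -0.11 (SE 0.0857) did not pass.

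GYS1, the glycogen synthase that elongates the chain, was lower in GCN2KO cells. It read 2267, 2262, 2152, 2216 and 2065 in WT unwounded and 2446, 2381, 2493, 2267 and 2511 in WT HDW libraries. It read 1463, 1612, 1345, 1596 and 1134 in GCN2KO unwounded and 1496, 1443, 1424, 1428 and 1418 in GCN2KO HDW libraries. Every GCN2KO value was below every WT value. GCN2KO against WT was -0.59 on the log2 scale (SE 0.0866, adjusted p = 1.60e-05) before and -0.72 (SE 0.0378, adjusted p = 1.69e-09) after HDW. PGM1, which links glycogen to glycolysis, gave 0.08 on the log2 scale (SE 0.0634, adjusted p = 0.257) before and -0.10 (SE 0.0341, adjusted p = 0.0198) after HDW.

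Pyruvate dehydrogenase passes pyruvate to the citric acid cycle, and the PDK kinases switch it off. PDHA1, its main catalytic subunit, was higher in GCN2KO cells by 0.80 on the log2 scale (SE 0.0743, adjusted p = 9.88e-08) before and 0.86 (SE 0.0569, adjusted p = 1.36e-08) after HDW, and rose by 0.17 on HDW in WT cells (adjusted p = 0.000556). It shares 19.3% of its exonic bases with MAP3K15 on the other strand. PDK2, the most abundant of the kinases per length, read 364, 356, 405, 393 and 357 normalized counts in WT unwounded and 212, 219, 232, 243 and 221 in WT HDW libraries. The GCN2KO values of PDK2 were 428, 389.8, 398, 423 and 427 before and 340.0, 368, 310.3, 288 and 326 after HDW. Values after HDW were below those before it in both genotypes, and farther below in WT cells. The log2 fold change on HDW was -0.75 (SE 0.0642, adjusted p = 1.60e-07) in WT and -0.33 (SE 0.0772, adjusted p = 0.0101) in GCN2KO cells (interaction 0.41, adjusted p = 0.0035). GCN2KO against WT was 0.16 on the log2 scale (adjusted p = 0.0574) before and 0.57 (adjusted p = 6.80e-06) after HDW. PDK2 shares 38.6% of its exonic bases with SAMD14 on the other strand.

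PDK1, a kinase well known as a target of hypoxia signaling, responded to HDW in GCN2KO cells. It read 443, 439.9, 483, 455 and 518 in WT unwounded and 485, 510.3, 449, 534 and 542 in WT HDW libraries. In GCN2KO cells it read 614, 477, 735, 557 and 753 before and 436, 447, 425, 457 and 429 after HDW. The WT groups overlapped, while every GCN2KO HDW value was below every GCN2KO unwounded value. On HDW it fell by 0.51 on the log2 scale (SE 0.108, adjusted p = 0.00589) in GCN2KO cells, against 0.09 (SE 0.0635, adjusted p = 0.256) in WT cells, with an interaction of -0.62 (adjusted p = 0.00132). PDK3 passed in none of the 5 comparisons in edgeR's quasi-likelihood test, with log2 fold changes of -0.23 to 0.20 and an unadjusted p under 0.05 in 1 of them, HDW in GCN2KO cells.

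PDK4 (ENSG00000004799, chromosome 7, 95583499 to 95596516), a kinase induced by fasting and fatty acids, was near the limit of detection. Its normalized counts were 9.99, 3.56, 8.39, 4.71 and 1.95 in WT unwounded and 6.8, 1.7, 5.13, 10 and 6.99 in WT HDW libraries. They were 1.12, 1.5, 2.63, 0.842 and 4.15 in GCN2KO unwounded and 26.7, 19.9, 22.5, 17.9 and 12.5 in GCN2KO HDW libraries. The GCN2KO HDW values were above those of the other 3 groups, on 11 to 32 raw reads a library against 1 to 10 elsewhere. As a description, the fitted log2 fold change was 3.16 for HDW in GCN2KO cells and 1.75 for GCN2KO against WT after HDW, with 2.98 for the interaction. Since only the GCN2KO HDW libraries carried the gene over the filter on low counts, it had to differ where it was fitted, and no test is given. DESeq2 gave no adjusted p for PDK4 on HDW in GCN2KO cells, and a filter at a mean of 50 counts removed the gene. Its share of PDK transcript per length was 4.35 ± 1.11% in GCN2KO HDW cells.

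In WT cells HDW moved most of the 35 genes by small amounts. Of the 34 tested, 15 rose, 11 fell and 8 did not pass, where 26.1% of all 15348 genes rose and 25.2% fell. The median log2 fold change was 0.06, against -0.00236 over all genes. PYGB was the 1 DE gene among them (2.62% of all genes were DE and higher, 1.55% DE and lower). The genes that rose were HK2, GPI, PFKP, PFKFB2, TPI1, GAPDH, PGK1, PGAM1, ENO1, ENO2, LDHB, PYGB, GYS1, UGP2 and PDHA1, and those that fell were SLC2A1, HK1, PFKM, PFKFB3, PFKFB4, ALDOC, PKM, SLC16A1, PYGL, GBE1 and PDK2.

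In GCN2KO cells HDW moved fewer of them past the test. PFKFB2 rose, as did PDK4 (admitted by its own high group), 9 fell (SLC2A1, ALDOC, PGK1, PGAM1, LDHA, GBE1, PGM1, PDK1 and PDK2) and 24 of 35 did not pass, where 11.9% of the 15791 genes tested rose and 10.8% fell. The median log2 fold change was -0.12, against -0.000966 over all genes. With library size alone as the scaling 4 rose and 9 fell. Apart from PDK4 no member was a DE gene in edgeR, and DESeq2 gave 0 (0.475% of all genes were DE and higher, 0.196% DE and lower). The calls for ALDOC, PGK1, LDHA and PGM1 are not firm, since they passed in 2, 3, 2 and 7 of the 10 fits that left out 1 library. The SE of a member's log2 fold change was larger in this comparison, with a median of 0.0824, than on HDW in WT cells, with 0.0402.

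By the interaction over all 20 libraries, HDW acted differently in WT and GCN2KO cells on 16 of the 35 genes, 6 with a higher (HK1, PFKM, PFKFB3, PFKFB4, PDK2 and PDK4) and 10 with a lower value in GCN2KO cells (GPI, PFKP, TPI1, GAPDH, PGK1, PGAM1, ENO2, PYGB, UGP2 and PDK1). Over the 16536 genes tested 11.2% were higher and 12.5% lower. With library size alone as the scaling the split was 7 higher and 7 lower for the members, and 2477 higher and 1510 lower for all genes, against 1851 and 2075. GPI, PFKP and GAPDH then no longer passed and SLC16A1 did. The median interaction was -0.15 over the members and -0.00902 over all genes. PYGB had an interaction of at least 1 in size, as had PDK4 under the limit given above, with 1.16% of all genes past this threshold and higher and 2.15% lower. From the triose phosphates to enolase, TPI1, GAPDH, PGK1, PGAM1 and ENO2 had interactions below 0 that passed, and ENO1 was at -0.26 on the log2 scale (adjusted p = 0.0646).

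**Figure D4:**
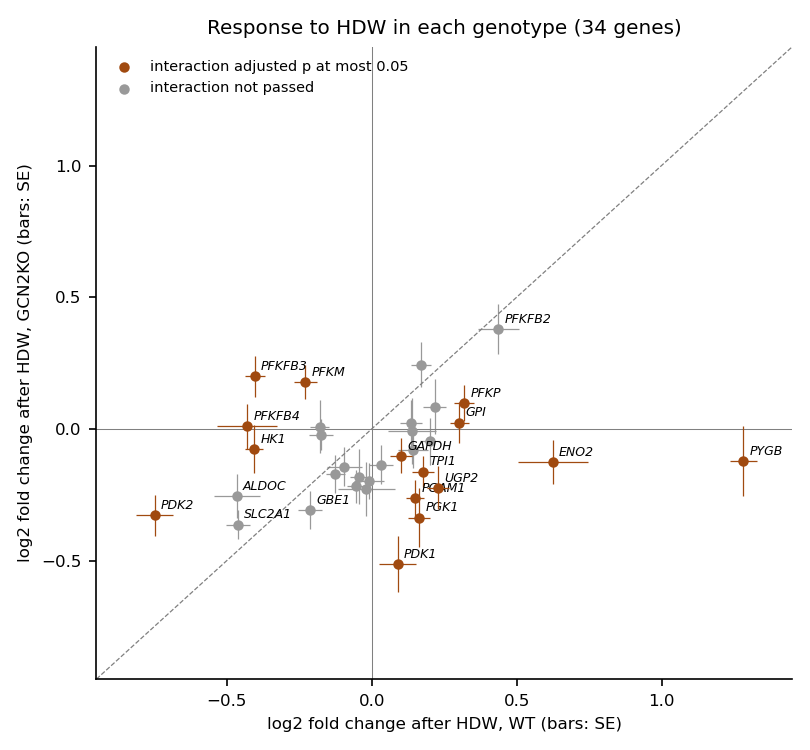
Log2 fold change after HDW in WT cells (x) and GCN2KO cells (y) of the 34 genes tested in both, with SE bars; brown points passed the interaction test and the dashed line marks equal responses. PYGB lies at 1.28 in WT and -0.12 in GCN2KO cells, ENO2 also lies to the right near y = 0, and SLC2A1, GBE1 and PFKFB2 lie close to the line.

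The 35 genes together took 1.33 ± 0.0286% of library counts in unwounded and 1.35 ± 0.0301% in wounded WT cells (mean ± SD, n = 5), with 1.53 ± 0.0452% before and 1.41 ± 0.0114% after HDW in GCN2KO cells. Of 14 log2 ratios between isozymes, 12 passed between genotypes before HDW, 13 after it, 11 on HDW in WT cells and 4 on HDW in GCN2KO cells. Each was an exact two-sided permutation test of 5 against 5 libraries, with 0.00794 the smallest p it allows, adjusted over 56 tests. The 12, the 13 and the 4 each include PDK4 to PDK2, which on such low PDK4 counts carries no weight as a test. Ratios of other pairs of genes were not computed for comparison. The 4 in GCN2KO cells were SLC2A3 to SLC2A1 (0.33 on the log2 scale), PFKP to PFKL (0.28), PFKM to PFKL (0.36) and PDK4 to PDK2 (3.44), the last on the low PDK4 counts given above. For the PFKFB genes before HDW the makeup differed between the genotypes while the sum differed by less than its SD.

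Genes of neighboring steps that are not among the 35 were counted from lists. Of all 15348 genes tested, 33.4% were higher and 33.1% lower in GCN2KO unwounded cells, the shares to set beside each list's counts in those cells. Of 8 tested genes for other enzymes and controls of glycolysis, 4 were higher and 2 lower in GCN2KO unwounded cells. TIGAR, which removes the activator that PFKFB enzymes make, was higher by 1.05 on the log2 scale (adjusted p = 4.90e-09). The hexokinase-related HKDC1 was higher by 3.01 on the log2 scale from 9.71 to 83.9 mean normalized counts. Its WT mean was under the filter's minimum count of 10, so the GCN2KO libraries, where it was high, admitted it. Its place among the 4 higher carries no weight as a test. Of 11 other hexose transporters and their regulators, 3 were higher and 6 lower. TXNIP, which restrains glucose uptake, was lower, with log2 fold changes of -2.47 (adjusted p = 1.31e-09) before and -2.52 (adjusted p = 9.69e-08) after HDW, and SLC2A12, which encodes GLUT12, was at -2.0 and -1.51.

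Of 18 other genes for lactate and pyruvate handling 10 were higher and 5 lower in GCN2KO unwounded cells. The 10 include SLC16A4, at means of 8.19 in WT and 14.3 in GCN2KO unwounded libraries. Its WT mean was under the filter's minimum count of 10, so the GCN2KO libraries, where it was high, admitted it. Its place among the 10 carries no weight as a test. MPC1, a subunit of the mitochondrial pyruvate carrier, was higher by 1.99 on the log2 scale (SE 0.114, adjusted p = 4.65e-10) before and 1.48 (adjusted p = 2.82e-09) after HDW. Of 20 other glycogen genes 5 were higher and 7 lower. GAA, the lysosomal enzyme that degrades glycogen, was lower, with log2 fold changes of -1.60 (adjusted p = 2.13e-10) and -1.53 (adjusted p = 6.85e-10), and PPP1R3C, which targets a phosphatase to glycogen, was higher by 1.51 and 1.22. Of 4 gluconeogenic genes 1 was higher and 2 lower in GCN2KO unwounded cells. After HDW 0 were higher and 4 lower, beside 35.9% and 35.8% of all genes. PCK2, the mitochondrial enzyme that makes phosphoenolpyruvate, was higher by 1.31 on the log2 scale in GCN2KO unwounded cells and lower after HDW (-0.51). It rose by 1.52 on HDW in WT cells and had an interaction of -1.81 (adjusted p = 4.84e-08), the same directions as PYGB. SLC37A4 was lower, with log2 fold changes of -1.36 before and -1.54 after HDW.

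Of 9 pentose phosphate genes 2 were higher and 5 lower in GCN2KO unwounded cells, and of 20 citric acid cycle genes 9 were higher and 5 lower, with IDH1 at 1.55 on the log2 scale (adjusted p = 7.37e-10). Hypoxia-response genes outside glycolysis gave 15 higher and 5 lower of 26 tested before HDW (57.7% and 19.2%, median 0.31). All genes gave 33.4% and 33.1% (median 0.00424). After HDW 17 were higher and 2 lower (65.4% and 7.69%, median 0.38), beside 35.9% and 35.8% of all genes (median 0.00197). Their higher members included STC2 (2.83 on the log2 scale before HDW), VEGFA (1.42), P4HA2 (1.28), CA9 (1.28) and BNIP3 (1.12), CA12 was lower (-1.85), and HIF1A itself was higher by 0.57 before and 0.82 after HDW. On HDW in WT cells 6 of these 26 rose and 11 fell (23.1% and 42.3%), beside 26.1% and 25.2% of all genes. Of 6 MYC-related regulators 1 was higher and 4 lower before HDW, with MYC at -1.06 on the log2 scale (adjusted p = 4.63e-09) and its antagonist MXD1 at 1.59 (adjusted p = 3.50e-11). Whether any of these moved the 35 genes was not tested.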

How the data were processed

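RNA from 20 cultures of NTERT keratinocytes was sequenced, 5 in each of 4 groups. Per the labels, the authors processed the reads with Trimmomatic, STAR and featureCounts on GRCh38, and deposited 1 table of raw read counts per library over 57500 genes. Uniquely mapped reads on exons were counted, so reads that fit a pseudogene or copy equally well are lost. The annotation release and the strand setting are not given in the sources used here, so overlapping genes on opposite strands may share reads. Of the gene identifiers 56410 matched GENCODE release 44 and 1090 did not. No column was left out. All 190 pairs of libraries differed, and 14083504 to 34611570 counts per library set the precision.

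Counts were scaled by TMM over the 20 libraries (normalized read counts), and levels of different genes were compared as RPKM over merged exons. Each pair of groups was fitted with edgeR 4.0.16 in R 4.3.3 (filterByExpr with a minimum count of 10 and a minimum total of 15, quasi-likelihood test, Benjamini-Hochberg adjustment over all genes tested), and the interaction over 20 libraries. The SE is the size of the log2 fold change divided by the square root of F. Ratios of isozymes used counts plus 0.5 and exact permutation tests. The fit was tested on simulated counts. Python 3.11.15 with numpy 2.4.6, pandas 2.3.3 and matplotlib 3.10.9 did the rest. Alternatives were DESeq2 1.42.0 (the tool named by the submitters), other scalings, other filters (none, or a mean of at least 50 counts), all libraries in 1 fit, the replicate number as a block, a pseudocount of 1 and each library left out.

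Members and lists were chosen with earlier results of these data known. Values in every library are given for members that were DE genes, or among the 3 with the smallest adjusted p past the threshold, in a comparison. Their isozymes are given beside them. At most 4 genes of another list were to be named, its DE genes with the smallest adjusted p and its most abundant gene first. The rule was not followed in full. DE genes it left unnamed include GPD1L (log2 fold change 1.33 in GCN2KO unwounded cells), MYCL (-1.62) and H6PD (-1.04). Abundant genes left unnamed include GPD2 (-0.92) and TKT (-0.28). CA9, CA12, HIF1A, SLC16A4 and EMB were named outside this rule, after their values were seen.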

Additional observations from a re-analysis of the deposited data

Results flagged for a closer look

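Among 140 sets of 1 gene in 1 group, 6 had a library apart from the other 4 by Dixon's test, which chance gives in about 1 of 20 sets. In WT HDW replicate 2, SLC2A3 was at 207.5 normalized read counts (the others at 243.6 to 254.2), PYGL at 10715 (11425 to 11687) and GBE1 at 1058 (924 to 953). In GCN2KO unwounded replicate 3, TPI1 was at 16034 (13804 to 14410.2) and PKM at 87008 (68205 to 73175). In GCN2KO unwounded replicate 5, GPI was at 7063 (8778 to 9454).

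The response to HDW differed between GCN2KO and WT cells for 16 genes by edgeR's interaction test. GCN2KO cells had the higher response for PFKFB3 (log2 difference 0.59), PFKFB4 (0.43), PDK2 (0.41), PFKM (0.39) and HK1 (0.32). PDK4 was at 2.98, but it was near the limit of detection in 3 groups and passed the filter on low counts only through GCN2KO HDW, where it was high, so this value is no test. They had the lower response for PYGB (-1.42), ENO2 (-0.76), PDK1 (-0.62), PGK1 (-0.52), UGP2 (-0.47), PGAM1 (-0.43), TPI1 (-0.35), GPI (-0.29), PFKP (-0.23) and GAPDH (-0.22).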

How the results depend on the processing

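No log2 fold change of a single gene changed sign as a call in the 3391 combinations of gene, comparison and alternative run: 3251 kept their side of the threshold, 92 lost it and 48 gained it. Of the isozyme ratios 594 kept it, 18 lost it and 4 gained it, and all 140 group means moved by less than 1 SD under the other 2 scalings. With library size alone the medians over the genes were 0.19 (GCN2KO against WT, unwounded), 0.085 (GCN2KO against WT, HDW), 0.022 (HDW in WT cells) and -0.085 (interaction), and on HDW in WT cells DESeq2 gave 0.093, no filter 0.10 and all libraries in 1 fit 0.095. With 1 library left out the median ran from 0.025 to 0.059 for GCN2KO against WT after HDW, from -0.15 to -0.084 for HDW in GCN2KO cells and from -0.18 to -0.11 for the interaction.

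HDW in GCN2KO cells was the least stable comparison. Genes that rose numbered 4 with library size alone, 5 with all libraries in 1 fit and 2 to 4 with 1 library left out. Genes that fell numbered 5 to 10 with 1 library left out (5 without GCN2KO HDW replicate 2 or 3), and 5 without both GCN2KO unwounded replicate 1 and GCN2KO HDW replicate 5, chosen after seeing the data. DE genes numbered 0 with DESeq2 and with a mean of at least 50 counts, which also left 1 for the interaction, since PDK4 then has no test. Isozyme ratios that passed numbered 2 to 4. Over all genes, 1880 rose and 1706 fell in this comparison, against 2736 and 2840 with all libraries in 1 fit and 1183 and 887 without GCN2KO HDW replicate 3. The cause was not tested. GBE1 after HDW and PGK1 and UGP2 before it lie near a log2 fold change of 1. PGK1 was at 0.94 without GCN2KO unwounded replicate 3.

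Samples share only a replicate number. The mean correlation of same-numbered deviations was 0.0579, 0.0281, 0.0345 and -0.201 in the 4 comparisons of groups, so they were not taken as pairs. With the replicate block 4 genes fell on HDW in GCN2KO cells in place of 9 (PGM1, PGK1, LDHA, PGAM1 and ALDOC lost their calls), and 1239 rose and 882 fell over all genes. The block also ended the calls of SLC16A1 (GCN2KO against WT, HDW) and GAPDH (interaction) and gave no new one.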
